A study of Mus musculus with 12 samples.

Results

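The urea cycle and glutamine genes described here are 10 mouse genes found by symbol among the 57180 rows of the deposited table: Cps1, Otc, Ass1, Asl, Arg1, Nags, Slc25a15, Gls2, Glul and Oat. All 10 had a row. They were followed in 12 libraries, 3 in each of 4 groups: vehicle liver, liver after carbon tetrachloride (CCl4, a chlorinated solvent toxic to the liver), and dorsal skin CX3CR1+ cells from vehicle-treated and CCl4-treated mice. The series' design text gives C57 mice for the liver samples and names hepatocytes as the material, while each sample is labelled as liver. The skin cells came from Cx3cr1-creER:Ai9 mice, in which an inducible Cre expressed from the Cx3cr1 gene switches on a reporter, and their libraries were made by smart-seq, which copies whole transcripts from few cells. Of dose, interval after treatment, sex and age nothing is stated in the sources read. The 3 replicates of each group are described as biological.

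Hepatocytes turn ammonia into urea by a cycle that runs partly in mitochondria and partly in the cytosol. Cps1 joins ammonia and bicarbonate to carbamoyl phosphate, Otc passes this to ornithine, Ass1 and Asl build and split argininosuccinate, and Arg1 releases urea and returns ornithine. Nags makes N-acetylglutamate, the obligatory activator of Cps1, and Slc25a15 carries ornithine and citrulline across the inner mitochondrial membrane. These enzymes, with the liver glutaminase Gls2, are highest in hepatocytes near the portal vein. Glul (glutamine synthetase) captures the remaining ammonia in a narrow rim of hepatocytes around the central vein. Oat (ornithine aminotransferase), which links ornithine to glutamate and proline, is pericentral as well. CCl4 is activated by cytochrome P450 enzymes of pericentral hepatocytes.

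The stretches before the starts of the pericentral genes Oat and Glul and of the cycle genes Ass1 and Otc are shown because the first pair are the pericentral genes and the second are the catalytic steps of the cycle with an entry in the sequence table. RefSeq's table, on build GRCm38.p6, held entries for 6 of the 10 genes. That is not the build of the deposited values, so the coordinates only locate the printed bases. Each line gives the 250 bases before the annotated start, 5′ to 3′ on the gene's strand. Oat is on the minus strand at chr7:132576399-132576648. Glul is on the plus strand at chr1:153899679-153899928. Ass1 is on the plus strand at chr2:31470020-31470269. Otc is on the plus strand at chrX:10252055-10252304. Capitals mark matches, on either strand, to 5 motifs: the TATA box TATAAA, the CCAAT box CCAAT, the GC box GGGCGG, the TCF/LEF core CTTTGA and the C/EBP half-sites TTGCNNAA.
Oat: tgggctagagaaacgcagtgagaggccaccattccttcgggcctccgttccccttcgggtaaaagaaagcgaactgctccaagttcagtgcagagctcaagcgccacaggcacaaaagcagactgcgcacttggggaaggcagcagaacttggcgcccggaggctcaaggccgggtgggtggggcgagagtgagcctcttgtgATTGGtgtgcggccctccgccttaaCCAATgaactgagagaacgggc
Glul: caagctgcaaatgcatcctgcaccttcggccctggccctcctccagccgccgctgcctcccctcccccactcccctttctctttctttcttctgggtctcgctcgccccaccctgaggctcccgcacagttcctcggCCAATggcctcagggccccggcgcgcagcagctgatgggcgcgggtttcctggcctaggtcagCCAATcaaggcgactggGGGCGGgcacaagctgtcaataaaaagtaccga
Ass1: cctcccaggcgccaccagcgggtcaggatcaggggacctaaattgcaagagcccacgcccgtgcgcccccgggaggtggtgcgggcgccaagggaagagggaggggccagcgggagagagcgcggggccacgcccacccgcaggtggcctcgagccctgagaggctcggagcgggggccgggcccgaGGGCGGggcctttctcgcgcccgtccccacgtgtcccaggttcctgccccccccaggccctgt
Otc: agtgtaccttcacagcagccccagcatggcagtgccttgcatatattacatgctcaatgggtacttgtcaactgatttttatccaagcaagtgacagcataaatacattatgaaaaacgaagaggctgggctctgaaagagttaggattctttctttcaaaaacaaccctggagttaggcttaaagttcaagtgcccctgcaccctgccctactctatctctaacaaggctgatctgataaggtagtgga
The Oat stretch held 2 CCAAT boxes, the Glul stretch 2 CCAAT boxes and 1 GC box, the Ass1 stretch 1 GC box, and the Otc stretch no match to these letters. No marked matches overlapped. Of all 32851 promoters in the table, 33.8% held a CCAAT box in the same 250 bases, 32.7% a GC box, 12.4% TATAAA, 13.8% the TCF/LEF core and 9.6% the C/EBP half-sites. The 4 stretches differed in base composition. G and C made up 75.6% of the Ass1 stretch, 64.8% of Glul, 60.0% of Oat and 43.6% of Otc, against a median of 52.4% over all promoters. CpG dinucleotides numbered 23, 15, 14 and 1 in the same order.

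Some facts of the libraries bear on every value. Genes with a mitochondrial (mt-) symbol and their near-copy pseudogenes held 25.7% to 28.4% of the TPM in the vehicle livers and 68.1% to 82.1% in the CCl4 livers, so all other genes had less of the total to share. All other genes held 31.9% in CCl4 replicate 3, against 17.9% and 19.8% in CCl4 replicates 1 and 2. The summed TPM of 6 hepatocyte markers (Alb, Apoa1, Ttr, Trf, Serpina1c and Apob) was 73609 to 82017 with vehicle, and 15321, 18162 and 35932 in CCl4 replicates 1, 2 and 3. All 6 fell. The summed markers of other cells in liver were higher with CCl4: macrophages (6 of 6 rose) at 67.2 to 197 against 15.2 to 32.7 TPM, endothelium (5 of 5 rose) at 55.8 to 154 against 9.73 to 10.7 TPM, and stellate cells and fibroblasts (5 of 6 passed the filter and rose) at 79.2 to 166 against 7.24 to 10.4 TPM. Neutrophil markers (4 of 4 rose) summed to 32.8 to 349 against 0.07 to 0.77 TPM. Of all genes tested in liver, 51.1% were called lower and 10.3% higher in TPM as deposited. In TPM rescaled without mt- genes and near copies, 4.2% of all genes were called lower and 66.8% higher. Red blood cell markers summed to 861 TPM in CCl4 replicate 2 and to 1.75 to 9.88 TPM in the other 5 livers. In bulk samples fewer hepatocytes and less RNA per hepatocyte cannot be told apart, and neither is separated here from the larger mt- share. The part of these shifts in the changes below was not tested. In skin, Cx3cr1 itself was at 3.91, 0.27 and 0.91 TPM under vehicle and at 5.28, 0 and 0.28 TPM under CCl4, while the T and natural killer cell markers summed to 852 to 7120 TPM, the stellate cell and fibroblast markers to 323 to 5435 TPM and the keratinocyte markers to 352 to 1948 TPM. The macrophage markers summed to 95.1 TPM in skin CCl4 replicate 3, where Mrc1 was listed at 0, and to 1362 to 6976 TPM in the other 5 skin libraries.

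In vehicle liver the 10 genes together held 0.589% to 0.612% of the TPM. Ass1 stood highest at 2773 ± 80.2 TPM (mean ± SD, n = 3 here and below). Arg1 followed at 1156 ± 44.8 TPM and Cps1 at 1006 ± 124 TPM, and the libraries of this pair overlapped. Asl was at 377 ± 36.3 TPM and Otc at 217 ± 13.7 TPM, each apart from its neighbours in the order. Gls2 at 160 ± 11.2 TPM and Oat at 155 ± 15.8 TPM overlapped, as did Slc25a15 at 97.3 ± 11.8 TPM and Glul at 79.8 ± 12.2 TPM. Nags, whose product is a regulator, was lowest at 20.4 ± 2.15 TPM. The vehicle libraries were close: the highest value of a gene was 1.06 times (Ass1) to 1.36 times (Glul) the lowest.

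All 10 genes were called lower after CCl4 in TPM as deposited, although Nags and Glul turned higher on average under other scalings described below, and for each of them every CCl4 library lay below every vehicle library. This must be read against the whole table. Of 10385 genes tested in liver, 61.4% were called, 51.1% lower and 10.3% higher. The groups did not overlap for 70.2% of genes, 58.8% lay wholly below vehicle, and the median log2 change was -0.59. The median over the 10 genes was -2.11. Oat had the largest change. In TPM as deposited, but not without mt- genes and near copies, its CCl4 libraries were the closest together. The urea cycle genes fell by differing amounts in the 3 CCl4 livers. The plot of liver TPM by gene shows both.

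**Figure D1:**
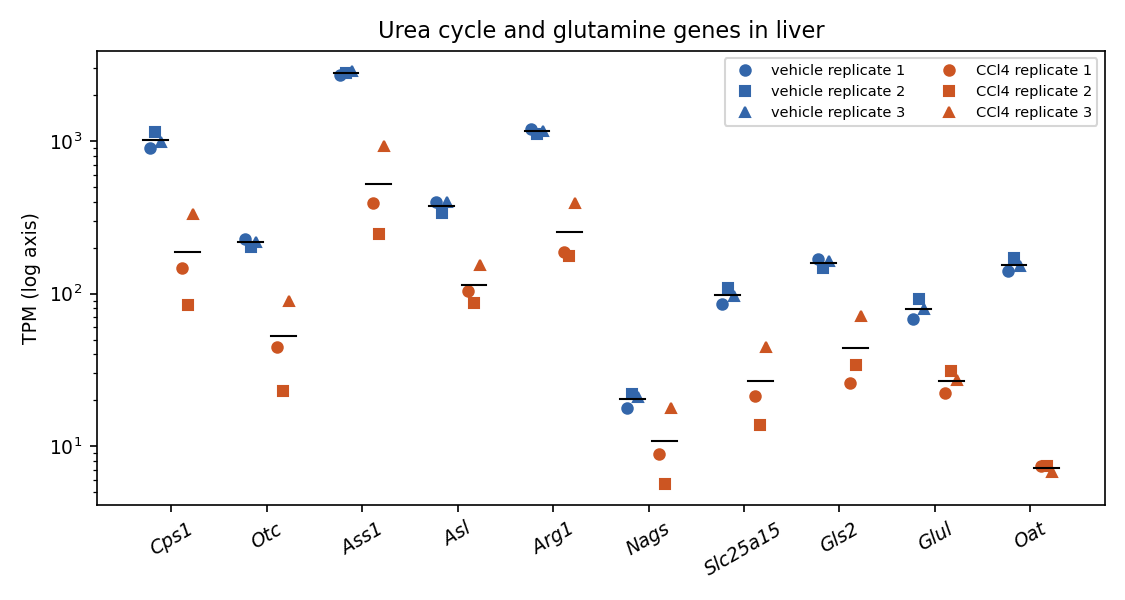
TPM of the 10 genes in the 6 liver libraries on a log axis, with vehicle in blue, CCl4 in orange, 1 symbol shape per replicate number and a black bar at each group mean. Every CCl4 value lies below the vehicle values of its gene in TPM as deposited (Nags and Glul turn higher on average in other scalings), CCl4 replicate 3 (triangles) is the highest CCl4 library for the 7 urea cycle genes and Gls2, and the CCl4 values of Oat lie between 6.75 and 7.47.

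Among the mitochondrial steps of the cycle, Cps1 was at 896, 1141 and 980.0 TPM in vehicle replicates 1, 2 and 3 and at 146, 84.8 and 333 TPM in CCl4 replicates 1, 2 and 3. This left 18.7% of the vehicle mean, a log2 change of -2.63 ± 0.44 (± SE; adjusted p = 0.000678). Otc was at 229, 202 and 219 TPM under vehicle and at 44.6, 23.1 and 90.1 TPM under CCl4, a change of -2.23 ± 0.43 (adjusted p = 0.00138). Both genes thus kept the same order of CCl4 livers, with replicate 3 nearest to vehicle and replicate 2 farthest. The carrier Slc25a15 was at 85.7, 109 and 96.9 TPM under vehicle and at 21.4, 13.8 and 44.7 TPM under CCl4, a change of -1.98 ± 0.39 (adjusted p = 0.00152). Nags was at 17.9, 22.1 and 21.1 TPM under vehicle and at 8.92, 5.65 and 17.7 TPM under CCl4. Its fall was the smallest of the 10, -0.99 ± 0.35 (adjusted p = 0.0280), and CCl4 replicate 3 came close to the lowest vehicle library. That call did not hold without vehicle replicate 2 or 3 or CCl4 replicate 1 or 2 (adjusted p = 0.0671, 0.0551, 0.105 and 0.0962).

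The cytosolic steps fell in the same pattern. Ass1 was at 2689, 2780.1 and 2849 TPM under vehicle and at 394, 244 and 926 TPM under CCl4, a change of -2.63 ± 0.42 (adjusted p = 0.000556). Asl, which splits argininosuccinate into arginine and fumarate, was at 397, 335 and 399 TPM under vehicle and at 104, 86.3 and 153 TPM under CCl4. Its change was -1.75 ± 0.32 (adjusted p = 0.00104). Arg1 was at 1198, 1109 and 1162 TPM under vehicle and at 188, 176 and 391 TPM under CCl4, a change of -2.30 ± 0.35 (adjusted p = 0.000429). For all 7 genes of the cycle CCl4 replicate 3 was highest and CCl4 replicate 2 lowest in TPM as deposited. The highest CCl4 library was 3.92 times the lowest for Cps1, 3.90 times for Otc and 3.80 times for Ass1, but 1.78 times for Asl and 2.22 times for Arg1. Summed over the 7 genes, TPM was 5513, 5699 and 5727 with vehicle and 907, 633 and 1955 with CCl4. In TPM rescaled without mt- genes and near copies, Asl was at 583, 437 and 481 in CCl4 replicates 1, 2 and 3. Replicate 1 was thus its highest there, while the other cycle genes kept the order of replicates 3, 1 and 2.

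The genes of glutamine and ornithine did not share that order. Gls2, the periportal glutaminase, was at 169, 147 and 163 TPM under vehicle and at 26.1, 34.1 and 71.7 TPM under CCl4, a change of -1.97 ± 0.37 (adjusted p = 0.00127). Replicate 3 was its highest CCl4 library too, but replicate 1 was the lowest. Glul was at 68.0, 92.3 and 78.9 TPM under vehicle and at 22.4, 31.1 and 27.0 TPM under CCl4. Its change of -1.54 ± 0.29 (adjusted p = 0.00113) was smaller than that of any cycle gene except Nags, and CCl4 replicate 2, the lowest library for the whole cycle, was its highest. Oat was at 140.5, 172 and 152 TPM under vehicle and at 7.40, 7.47 and 6.75 TPM under CCl4. This left 4.65% of the vehicle mean, a 21.5-fold lower level, with a log2 change of -4.24 ± 0.26 (adjusted p = 1.51e-06). In TPM as deposited, the coefficient of variation among the CCl4 libraries was 5.51% for Oat and 16.1% for Glul, against 30.3% to 68.7% for the 7 cycle genes. This contrast did not hold in TPM rescaled without mt- genes and near copies. There the CCl4 livers were at 33.4 ± 10.8 for Oat and 123 ± 36.5 for Glul (mean ± SD). Arg1 at 1054 ± 168 and Asl at 500 ± 74.8 were closer together in proportion, and Cps1 at 763 ± 310 was less close.

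Ratios of 2 genes within a library do not depend on the TPM total or on its mt- share. They can depend on the mix of cells, whose part was not tested, and are given as a description without a test. Oat stood to Cps1 as 0.157, 0.151 and 0.156 to 1 in the vehicle livers and as 0.0506, 0.0881 and 0.0203 to 1 in CCl4 replicates 1, 2 and 3. The vehicle ratios were nearly the same and every CCl4 ratio was lower, with a log2 difference of -1.78. It was -1.21 without CCl4 replicate 3 and -2.27 without CCl4 replicate 2. Glul stood to Cps1 as 0.0759, 0.0810 and 0.0805 to 1 with vehicle and as 0.154, 0.367 and 0.0813 to 1 with CCl4. The pericentral gene was thus higher relative to Cps1 in CCl4 replicates 1 and 2, while replicate 3 lay just above the vehicle livers. Replicate 2, with the highest ratio, is also the liver with the red blood cell markers, whose part was not tested. The log2 difference was 1.07, or 0.50 without CCl4 replicate 2. Both Cps1 and Glul fell by more than the median gene, at -2.05 and -0.95 relative to it in TPM as deposited. A gene at that median would thus rise more against Cps1 than Glul did. Between the pericentral genes, Oat stood to Glul as 2.07, 1.86 and 1.93 to 1 with vehicle and as 0.330, 0.240 and 0.250 to 1 with CCl4. All 3 CCl4 livers had moved by a like amount, from more Oat than Glul to less, a log2 difference of -2.85 that ran from -2.99 to -2.77 when any 1 liver library was left out. Glul to Gls2, synthesis to breakdown of glutamine, was 0.403, 0.627 and 0.483 with vehicle and 0.860, 0.913 and 0.377 with CCl4, and these groups overlapped.

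**Figure D2:**
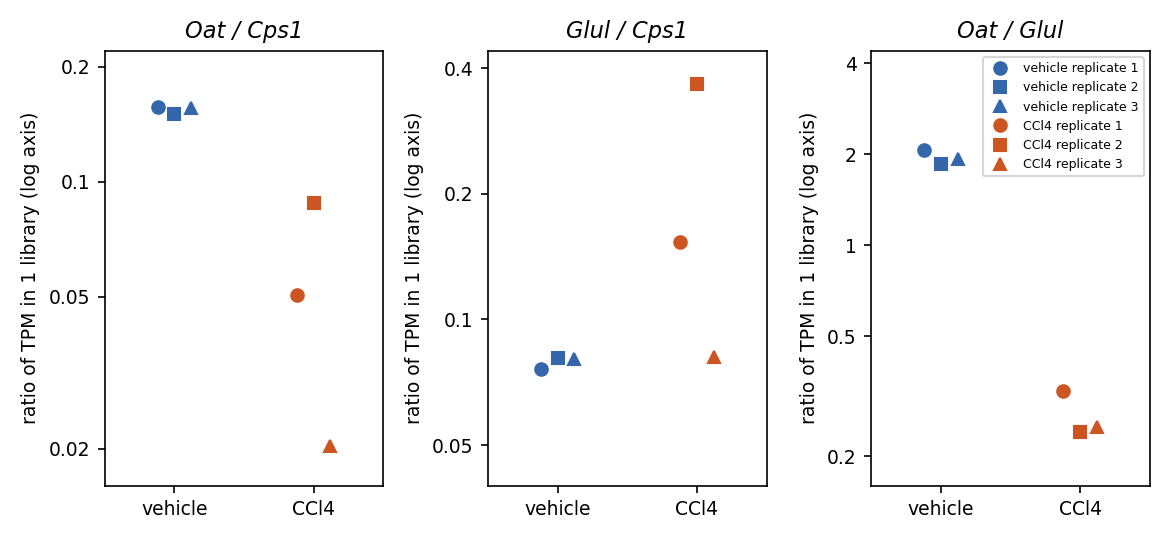
Ratio of the TPM of 2 genes within each liver library on log axes, 1 panel per pair, with symbols as in the plot of liver TPM by gene. Oat to Cps1 and Oat to Glul are lower in every CCl4 liver, and Glul to Cps1 is 0.367 in CCl4 replicate 2 but 0.0813 in CCl4 replicate 3, next to the vehicle livers.

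Within the cycle the proportions to Cps1 moved by smaller log2 differences than that of Oat over all livers. Without CCl4 replicate 3 the difference of Oat was -1.21, smaller in size than that of Nags over all livers. Ass1 was 244% to 300.2% of Cps1 with vehicle and 269.8% to 288% with CCl4, and the groups overlapped. Nags to Cps1 rose from 0.0193 to 0.0215 with vehicle to 0.0533 to 0.0666 with CCl4, a log2 difference of 1.57, with all CCl4 livers above all vehicle livers. Asl to Cps1 was 0.294 to 0.444 with vehicle and 0.461 to 1.02 with CCl4, and Slc25a15 to Cps1 was 0.0957 to 0.0988 and 0.134 to 0.163. Otc to Cps1 was 0.177 to 0.256 and 0.271 to 0.305. In TPM the CCl4 livers thus held more Nags, Asl, Slc25a15 and Otc per unit of Cps1. Cps1 itself changed by -2.63 against a median of -0.59 for all genes. A gene at that median would also rise per unit of Cps1. How many of all genes did so was not counted. Arg1 to Cps1 overlapped between the groups, at 0.972 to 1.34 with vehicle and 1.17 to 2.07 with CCl4.

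Measured against the 6 hepatocyte markers of the same library, per 1000 TPM of their sum, Oat was at 1.91, 2.09 and 1.91 TPM under vehicle and at 0.483, 0.411 and 0.188 TPM under CCl4. Cps1 was at 12.2, 13.9 and 12.3 TPM under vehicle and at 9.54, 4.67 and 9.26 TPM under CCl4. On this measure Cps1, Ass1, Arg1 and Oat lay below vehicle in every CCl4 liver, Nags lay above it, and the other 5 genes overlapped. All 6 markers were themselves called lower with CCl4, so the measure is not a content per hepatocyte. It was not taken for all genes, so no share of them can be set beside these results. Glul was at 0.924, 1.13 and 0.991 TPM under vehicle and at 1.46, 1.71 and 0.752 TPM under CCl4, so that replicates 1 and 2 were above the vehicle livers and replicate 3 below.

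How far the 10 genes fell depended on what the libraries were scaled to, as the plot of changes by scaling shows. Once mt- genes and their near copies were left out of the total, the median change of all genes moved from -0.59 to 0.85. In that scaling 4.2% of genes were called lower and 66.8% higher, and 4 of the 10 genes were called lower. The same 4 lay wholly below vehicle, as did 6.09% of all genes. Their changes were -2.67 ± 0.25 for Oat (adjusted p = 0.000468), -0.93 ± 0.31 for Cps1 (adjusted p = 0.0292), -0.92 ± 0.29 for Ass1 (adjusted p = 0.0235) and -0.59 ± 0.15 for Arg1 (adjusted p = 0.00961). Glul was at 0.14 ± 0.24 and Nags at 0.62 ± 0.25, both above 0 and not called (adjusted p = 0.620 and 0.0600). Otc, Slc25a15, Gls2 and Asl were at -0.54, -0.32, -0.29 and -0.05 and were not called either. In rescaled TPM, Oat was at 196, 232 and 205 with vehicle and at 41.3, 37.8 and 21.2 with CCl4, and Glul was at 95.0, 125 and 106 with vehicle and at 125, 157 and 84.8 with CCl4. Oat libraries therefore stayed apart in this scaling and Glul libraries overlapped.

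**Figure D3:**
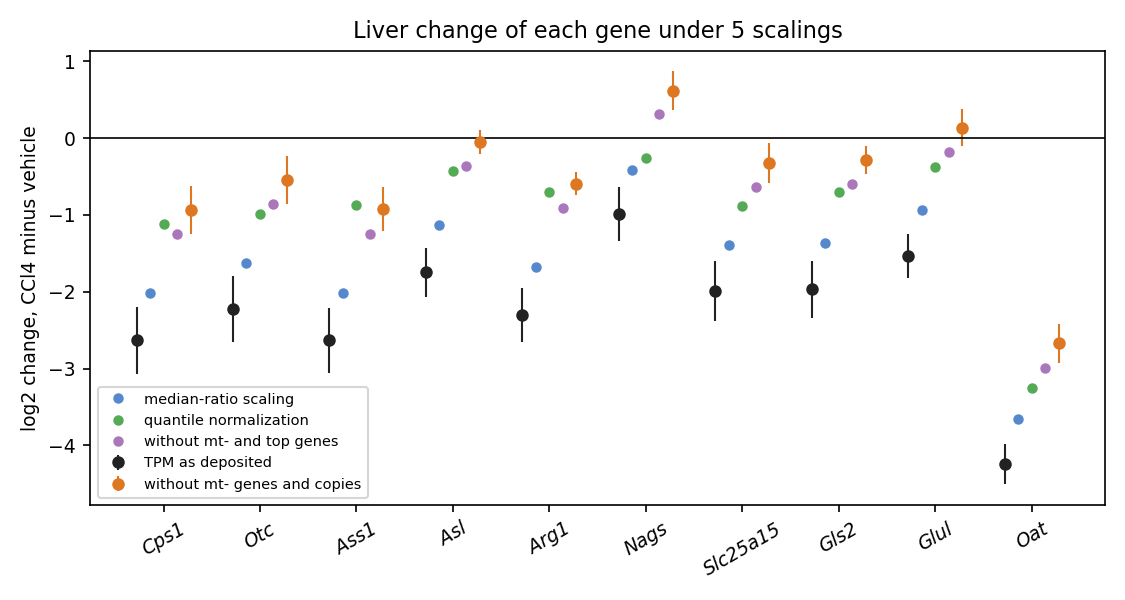
Log2 change in liver, CCl4 minus vehicle, of each gene in TPM as deposited and under 4 other scalings, with bars of 1 SE for the deposited values and for TPM without mt- genes and near copies. Oat lies between -4.24 and -2.67 in all 5, Nags turns above 0 in both rescalings of TPM (0.31 and 0.62) and Glul in 1 of them (0.14).

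Relative to the median of all genes in each scaling, every one of the 10 lay below 0. Oat was at -3.66 as deposited and at -3.52 without mt- genes and near copies. Cps1 was at -2.05 and -1.78, Ass1 at -2.04 and -1.77, Glul at -0.95 and -0.71, and Nags at -0.40 and -0.23. The calls for Cps1, Arg1 and Oat held under all 4 other scalings. Median-ratio scaling, where 26.2% of genes were called lower and 17.7% higher, kept 9 of the 10 calls, all but Nags. Quantile normalization, with 24.8% of genes lower and 17.1% higher, kept 4: Oat at -3.25, Cps1 at -1.11, Arg1 at -0.70 and Gls2 at -0.70. TPM rescaled without mt- and the 10 most abundant genes, where 7.58% of genes were called lower and 50.7% higher, kept 5: these 4 and Ass1.

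The liver profiles most like those of 3 of the genes were sought among 5070 other genes, by the root mean square difference of centred log2(TPM + 1) over 6 libraries. Closest to Cps1 were Pcx, the mitochondrial pyruvate carboxylase, at 0.07, Ass1 at 0.10, and Dmgdh and Acox2 at 0.11 and 0.12. For Glul they were Ctsf, Slc8b1, Adck5, H2-T23 and Smarcd2, at 0.09 to 0.12. No gene was as near to Oat: the closest were Mup6 at 0.20, Hectd2os at 0.33, Serpina1e at 0.35, Selenbp2 at 0.38 and Slco1a1 at 0.39. Glul and Oat themselves differed by 1.36, more than Cps1 differed from Glul (0.83) or from Oat (1.01). Mup6 and Serpina1e belong to families of near-identical paralogs, so their single values are uncertain.

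Genes that feed the cycle with ammonia, bicarbonate, glutamate and aspartate were mostly lower too. Of 16 listed, 14 passed the filter on low TPM: 13 fell and 1 rose, with a median change of -1.86, where 51.1% of all genes fell and 10.3% rose. Without mt- genes and near copies 5 fell and 2 rose, where 4.2% of all genes fell and 66.8% rose. Car5a, the mitochondrial carbonic anhydrase that supplies bicarbonate to Cps1, had the largest fall, from 40.8, 39.8 and 42.6 TPM to 3.85, 2.72 and 11.0 TPM, a change of -2.81 ± 0.38 (adjusted p = 0.000230). Alanine aminotransferase Gpt and mitochondrial aspartate aminotransferase Got2 fell too, at -2.47 and -2.25. Without mt- genes and near copies Gpt was still lower, at -0.80 (adjusted p = 0.00484), while Got2 was at -0.58 and was not called (adjusted p = 0.235). Arg2, the second arginase, failed the filter, at 0.03, 0 and 0 TPM under vehicle and at 0.57, 0.81 and 0.09 TPM under CCl4, at most 0.459% of both arginases.

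**Figure D4:**
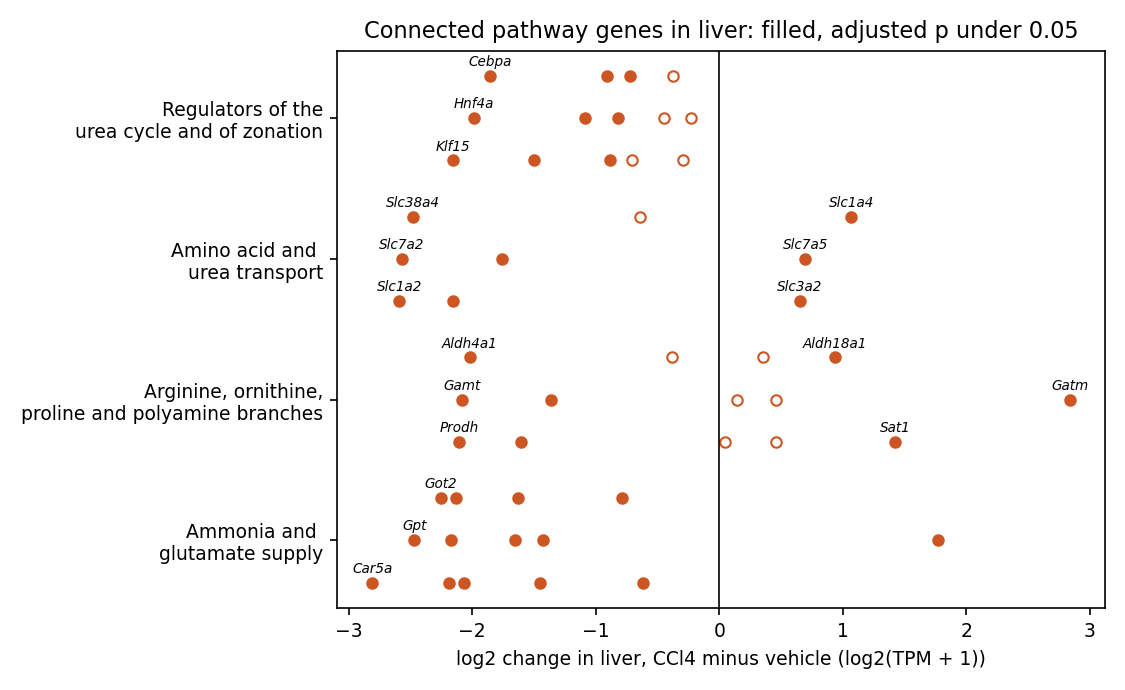
Log2 change in liver, CCl4 minus vehicle in log2(TPM + 1) as deposited, of the 51 tested genes on 4 lists of connected genes, with 1 point per gene, filled where called and spread vertically for legibility only. The ammonia and glutamate list lies left of 0 except 1 gene, and the arginine, ornithine, proline and polyamine list spans -2.10 (Prodh) to 2.84 (Gatm); many genes left of 0 lie nearer to or right of it under other scalings.

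The branches that take arginine and ornithine elsewhere did not move together. Of 18 genes of arginine, ornithine, proline and polyamine metabolism, 14 passed the filter: 5 fell, 3 rose and 6 were not called, with a median of 0.10 against -0.59 for all genes, of which 51.1% fell and 10.3% rose. Without mt- genes and near copies 9 rose and 1 fell, with a median of 1.75 against 0.85, and the rises are near the share of all genes in that scaling, 66.8%. Proline and ornithine breakdown was on the falling side in TPM as deposited, with proline dehydrogenase Prodh at -2.10 and the next enzyme of that route, Aldh4a1, at -2.02. Without mt- genes and near copies Prodh and Aldh4a1 were at -0.46 and -0.37 and were not called (adjusted p = 0.128 and 0.203). Creatine synthesis split, because Gatm, which moves the amidino group from arginine to glycine, rose from 1.17, 0.94 and 0.67 TPM to 10.5, 24.8 and 7.71 TPM (2.84 ± 0.34, adjusted p = 0.000117), whereas Gamt, which completes creatine, fell, at -2.08. Sat1, which acetylates polyamines, rose from 73.8, 35.1 and 52.3 TPM to 99.7, 148 and 183 TPM, a change of 1.42 ± 0.36 (adjusted p = 0.00603). Aldh18a1, which starts proline and ornithine synthesis from glutamate, rose from 0.08, 0.20 and 0.17 TPM to 1.14, 1.26 and 1.19 TPM. Odc1, which turns ornithine into putrescine, was at 17.5 to 18.5 TPM under vehicle and 17.5 to 23.7 TPM under CCl4 and was not called (adjusted p = 0.622), but it was called higher under all 4 other scalings, by 0.73 to 1.82.

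Transporters of amino acids and urea moved in both directions. Of 14 listed, 9 passed the filter: 5 fell, 3 rose and 1 was not called. The falls are near the share of all genes, 51.1%, while 10.3% of all genes rose. Without mt- genes and near copies 4 fell and 4 rose, where 4.2% of all genes fell and 66.8% rose. Slc1a2, the pericentral glutamate transporter, fell from 4.32, 7.35 and 5.14 TPM to 0.11, 0.09 and 0.03 TPM, a change of -2.59 ± 0.20 (adjusted p = 8.98e-06). As for Oat, CCl4 replicate 3 was its lowest liver, though all 3 CCl4 values were very low. The pericentral genes Cyp2e1, Cyp1a2, Rgn, Lect2 and Cyp2a5 went the other way, with replicate 3 as the highest CCl4 liver. Without mt- genes and near copies the Slc1a2 change was still -2.63. Slc7a2, the arginine and ornithine carrier of hepatocytes, and Slc38a4, a sodium-coupled neutral amino acid carrier, fell as well, at -2.57 and -2.48. Slc1a4, a carrier of small neutral amino acids, Slc7a5, the light chain of the large neutral amino acid exchanger, and Slc3a2, its heavy chain, rose by 1.07, 0.70 and 0.65, and stayed low in level for the first pair (at most 3.72 TPM).

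Among 16 regulators of the cycle and of zonation, 14 passed the filter: 9 fell, 0 rose and 5 were not called (median -0.85), where 51.1% of all genes fell. Without mt- genes and near copies 7 rose and 1 fell, where 66.8% of all genes rose and 4.2% fell. Klf15, a transcription factor of amino acid catabolism, fell from 44.7, 50.7 and 44.7 TPM to 7.47, 8.09 and 14.8 TPM, a change of -2.16 ± 0.30 (adjusted p = 0.000254). The hepatocyte factors Hnf4a and Cebpa fell, at -1.98 and -1.86. Without mt- genes and near copies Klf15 was still lower, at -0.55 (adjusted p = 0.00743), while Hnf4a and Cebpa were at -0.32 and -0.20 and were not called. The Wnt targets Axin2 and Rnf43, which like Glul and Oat are known from pericentral hepatocytes, were at 1.1 to 1.51 and 2.14 to 3.04 TPM under vehicle and at 0.49 to 1.51 and 0.82 to 2.87 TPM under CCl4. Neither was called in TPM as deposited (adjusted p = 0.365 and 0.226). Both were called higher without mt- genes and near copies, at 0.87 and 0.92 (adjusted p = 0.0153 and 0.0239). The median change of all genes in that scaling was 0.85, so both lay close to the typical gene. Without mt- and the most abundant genes Axin2 and Rnf43 were at 0.68 and 0.67 and were not called (adjusted p = 0.0664 and 0.106). They were not called under median-ratio scaling (0.07 and 0.02) or quantile normalization (-0.27 and -0.23) either. Tbx3, another Wnt target of this list, was called lower in TPM as deposited, from 1.78 to 1.95 TPM under vehicle to 0.32 to 0.83 TPM under CCl4 (-0.91 ± 0.18, adjusted p = 0.00172), and was at -0.14 and not called without mt- genes and near copies. Lgr5 and Znrf3 were below 1 TPM in every liver and were not tested.

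In the skin CX3CR1+ cell libraries the order of the 10 genes was another, as the plot of skin TPM by gene shows. Oat and Glul were highest and overlapped each other in range: Oat at 310.4, 304 and 61.9 TPM under vehicle and 233, 250.5 and 78.3 TPM under CCl4, and Glul at 64.9, 147 and 112 TPM under vehicle and 86.5, 401 and 86.7 TPM under CCl4. For Oat, replicate 3 of each group was the low library, and for Glul, CCl4 replicate 2 stood far above the rest. That library also had the highest sums of red blood cell (2790.4 TPM) and endothelial (80.7 TPM) markers of the 6, and their part in its Glul value was not tested. Asl followed at 14.7 to 26.4 TPM under vehicle and 11.2 to 22.9 TPM under CCl4, and Ass1 at 1.97 to 18.7 and 2.26 to 12.2 TPM. The enzymes that open the cycle were near 0: Cps1 was at 0.07, 1.03 and 0 TPM under vehicle and 0, 0.28 and 0 TPM under CCl4, and Otc did not exceed 2.59 TPM. Alb, 1 of the 6 hepatocyte markers, was at 0 to 5.28 TPM in these libraries. The 6 markers summed to 99.2 to 1611 TPM there, with Trf at 99.1 to 1609 TPM, and Apoa1 reached 92.5 TPM in skin vehicle replicate 2. Neighbours from Asl downwards overlapped in both groups.

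**Figure D5:**
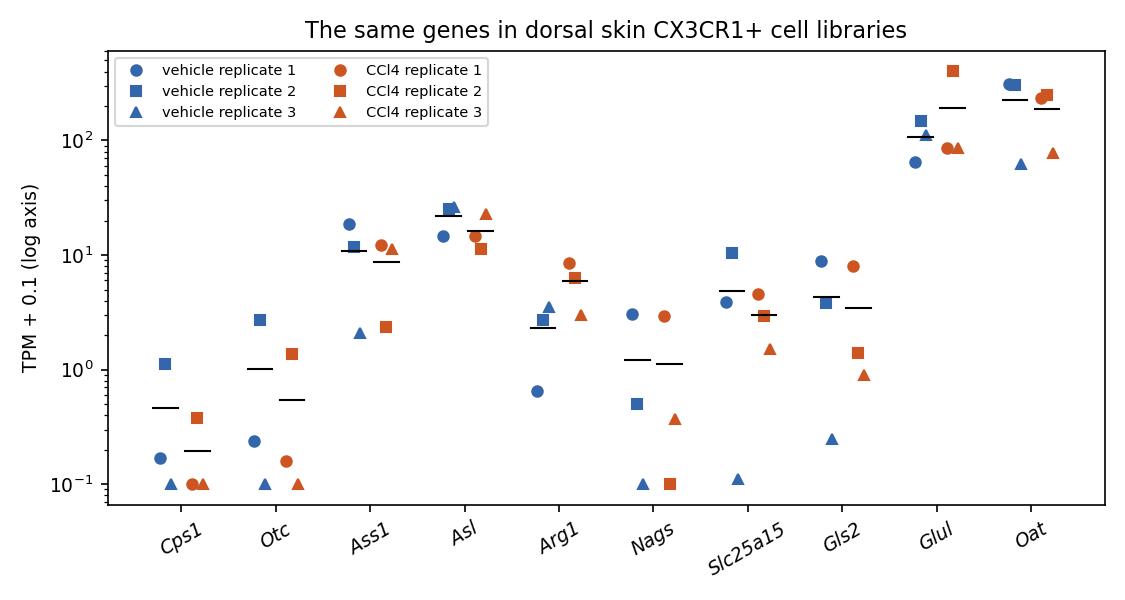
TPM + 0.1 of the 10 genes in the 6 skin libraries on a log axis, with colours, symbols and mean bars as in the plot of liver TPM by gene. Vehicle and CCl4 libraries overlap for all 10 genes, Oat and Glul are highest, and points at 0.1 are genes listed at 0 TPM.

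Of the 10 genes, 7 passed the filter in skin, and none was called (percent of all 13767 tested genes called: 0). limma gave 288 skin genes at an unadjusted p under 0.05. Vehicle and CCl4 libraries overlapped for all 10 genes, where 5.28% of genes tested did not overlap. Arg1 was at 0.55, 2.59 and 3.43 TPM under vehicle and at 8.48, 6.19 and 2.90 TPM under CCl4, a log2 difference of 1.14 ± 0.67 (adjusted p = 1.00). The other 6 differences ran from -0.43 ± 0.62 (Asl) to 0.50 ± 0.73 (Glul), with standard errors of 0.62 to 0.92 that exceeded every 1 of these differences. The Glul difference was -0.24 without CCl4 replicate 2. Arg2 made up 26.9% to 96.6% of both arginases. On the 4 lists, 47 genes passed the filter and none was called. The lowest unadjusted p in each list belonged to Got1 (a log2 difference of -1.62), Srm (1.20), Slc14a1 (-1.32) and Cebpb (0.84), followed by Hal (1.20), Gamt (-0.62), Aqp9 (-0.76) and Klf15 (0.32).

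The change in liver was set against that in skin by the interaction of treatment and tissue, in which tissue, assay and mouse strain cannot be told apart. Of 9255 genes tested, 0.216% were called. None of the 7 genes tested was among them. Oat had the largest difference, -4.13 ± 0.84, and Arg1 followed with -3.44 ± 0.69 (adjusted p = 0.0641 for both). Ass1, Glul, Slc25a15, Gls2 and Asl differed by -2.46, -2.03, -1.95, -1.79 and -1.32 (adjusted p = 0.176 to 0.354). The differences of Oat and Arg1 were called without skin vehicle replicate 3 (adjusted p = 0.0223 and 0.0215) and without skin CCl4 replicate 1 (adjusted p = 0.0432 and 0.0407). Oat was also called without skin CCl4 replicate 3 and with a replicate block (adjusted p = 0.0460 and 0.0321), and Arg1 without liver CCl4 replicate 3 (adjusted p = 0.0345). Both were called with a pseudocount of 0.1 (adjusted p = 0.0347 and 0.0481) and with median-ratio scaling (adjusted p = 0.0248 and 0.0426). The other way, the adjusted p of both rose to between 0.169 and 0.291 without any 1 vehicle liver or CCl4 liver replicate 1 or 2. The Arg1 difference shrank to -1.70 with quantile normalization (adjusted p = 0.179), to -1.99 without mt- and the 10 most abundant genes (adjusted p = 0.101) and to -1.74 without mt- genes and near copies (adjusted p = 0.112). That of Oat was -2.96, -2.78 and -2.54 in these scalings and was not called in any (adjusted p = 0.1001, 0.0951 and 0.0985).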

How the data were processed

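RNA of 6 liver and 6 dorsal skin libraries had been sequenced and deposited as 1 table of TPM for 57180 genes. TPM corrects for transcript length and gives every library 1 fixed total. It holds no read depth, so depth is unknown and no counting interval can be given, and an exact 0 can be a failed estimate. The authors deposited these TPM values after processing with fastp, HISAT2, StringTie and RSEM and build GRCm39, as listed without versions or roles per the submitters' processing notes.

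All 12 columns matched a library name in the labels, and 51884 gene IDs, the 10 studied among them, had a symbol in the name tables. Values were analysed as log2(TPM + 1) with limma 3.58.1 in R 4.3.3 (lmFit and eBayes with a mean-variance trend, two-sided), separately in liver and skin. The test covered genes reaching a TPM of 1 in 3 or more of the tissue's 6 libraries, with p-values adjusted over all of them by Benjamini-Hochberg and calls made under 0.05. Every adjusted p in the text is limma's, fold changes on this scale understate changes of genes with low TPM, and the fits were tested on simulated data. The tissue difference is the interaction term of 1 limma fit over 12 libraries, for genes past the filter in both tissues. Ratios of 2 genes within a library use TPM with nothing added.

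The 10 genes, the 4 lists of connected genes and the markers were chosen with earlier results of these data known. The naming rule took all 10 genes. From each list it took up to 3 called liver genes in each direction, those with the greatest change and no overlap between groups. With none called in skin it took the 2 lowest p of each list. For Cps1, Glul and Oat it took the 5 most alike liver profiles. Values of 2 genes taken by this rule are not reported here, though counts and medians include every listed gene. Other genes are chosen after their values were seen. Alternatives were other pseudocounts, filters and scalings, a replicate block, robust moderation, 1 fit over 12 libraries, and leaving out each library. One scaling left out genes with an mt- symbol and 16 annotated pseudogenes whose GENCODE M21 transcripts match them at 90% identity over 50% of their length.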

Additional observations from a re-analysis of the deposited data

How the results depend on the processing

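TPM fixes each library's total, depth is unknown, and the labels give no batch, so these limits bear on every level. Of 10 genes lower in liver, 4 remained called under quantile normalization, 5 with TPM rescaled without mt- and the 10 most abundant genes, 4 without mt- genes and near copies, and 6 in 1 fit over 12 libraries, against 9 or 10 under the other settings and 9 to 10 without any 1 library. Oat, Cps1 and Arg1 were called lower under all 17 liver alternatives. Reversed liver values were Glul at 0.14 without mt- genes and near copies, and Nags at 0.31 and 0.62 in the 2 rescalings of TPM. All liver calls numbered 6377, but 4084 with a filter at a TPM of 5 and 1736 in 1 fit over 12 libraries. The split of higher and lower calls, 1073 and 5304, became 1841 and 2720 under median-ratio scaling, 1778 and 2574 under quantile normalization, 5254 and 785 without mt- and top genes, 6922 and 435 without mt- genes and near copies, and 2007 and 4527 without a filter. With a filter at a TPM of 5 it was 321 and 3763. The higher calls, 10.3% of genes, numbered 504, 444 and 540 without CCl4 liver replicate 1, 2 and 3. The cause of each was not tested.

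In skin 1 gene was called in the fit over 12 libraries and 0 otherwise. Skin changes that were not called turned sign for Gls2 (0.0801 with a pseudocount of 0.1, 0.0329 with quantile normalization) and Slc25a15 (0.73 with that pseudocount, 0.13 with median-ratio scaling, 0.21 with quantile normalization). Leaving out 1 library gave skin changes of -0.97 to 0.48 for Ass1, -1.03 to 0.52 for Gls2, -0.24 to 0.86 for Glul, -0.88 to 0.42 for Oat and -0.99 to 0.75 for Slc25a15.

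Tissue differences numbered 20 genes, but 176 with a pseudocount of 0.1, 66 without a filter, 11 with a filter at a TPM of 5, 206 with median-ratio scaling, 76 with quantile normalization, 384 without mt- and top genes, 548 without mt- genes and near copies, and 2 to 424 without 1 library (150 without liver CCl4 replicate 3, 424 without skin vehicle replicate 3, 330 without skin CCl4 replicate 1, 56 without skin CCl4 replicate 2, 17 without skin CCl4 replicate 3, and 2 to 6 without each other library). Asl reversed to 0.16 and 0.40 in the 2 rescalings. With a replicate block, tissue differences numbered 52, liver calls 6493 and skin calls 0, and all 10 genes stayed lower in liver. Replicate numbers here are those of the sample titles, while the library names count differently in all groups except vehicle liver, so the block does not follow the library names. By title number the libraries do not pair in liver (correlations of -0.04, 0.08 and 0.07 between their deviations from the group means) nor all in skin (0.59, 0.09 and 0.35), and not every library correlated best with its own number.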
